A study of Mus musculus with 3 samples.

Results

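The Sox genes of groups C to F were examined in a map of open chromatin from the whole mouse uterus on gestation day 4. The 10 genes were Sox4, Sox11 and Sox12 of group C, Sox5 and Sox13 of group D, Sox9 and Sox10 of group E, and Sox7, Sox17 and Sox18 of group F. They were chosen by name, and every peak that overlapped the annotated span of a gene or the 10 kb on either side of it was taken. This gave 15 of the 12413 peaks in the list. Sox6 of group D and Sox8 of group E were not among the 10 and are described with the other Sox genes below.

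The study used FAIRE-seq, in which phenol extraction of crosslinked chromatin recovers DNA that is little bound by nucleosomes. The samples formed 1 group of 3: uteri of untreated wild-type C57BL/6J females aged 6 to 10 weeks, mated with fertile males and checked for blastocysts in the uterine flush. Since the peak list is not divided by sample, the spread between mice cannot be given and no group was compared with another. Library depth is unknown. Because the tissue mixes epithelium, glands, stroma, muscle, vessels and immune cells, weak opening in many cells and strong opening in few cannot be told apart.

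Sox proteins are transcription factors that bind and bend DNA through a shared HMG box, and the family is divided into groups by the likeness of that domain. Group C proteins activate genes in progenitor cells, and their genes have no introns. Group D proteins have a coiled-coil domain and act mainly by helping or hindering other factors. Group E directs cartilage, glial and glandular fates, and group F directs the formation of vessels. In the uterus Sox17 is made in epithelium and endothelium, where it acts with the progesterone receptor, and Sox9 is made in glandular epithelium.

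Open chromatin was found at 9 of the 10 Sox genes, against 57.6% of the 21523 protein-coding genes, when the span and 10 kb on each side were counted. Within 1 kb of an annotated end of the gene, 9 of 10 had a peak, against 44.5% of protein-coding genes. Sox5 had none. The 8 Sox genes with spans of up to 10 kb all had a peak, against 41.5% of the 7677 protein-coding genes in that size range. Sox12 had 4 peaks, Sox4, Sox13 and Sox18 had 2 each, and the other 5 genes had 1 each. These are descriptions of this list. No test was made of the difference from other genes, and the count of 10 is small.

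**Figure D1:**
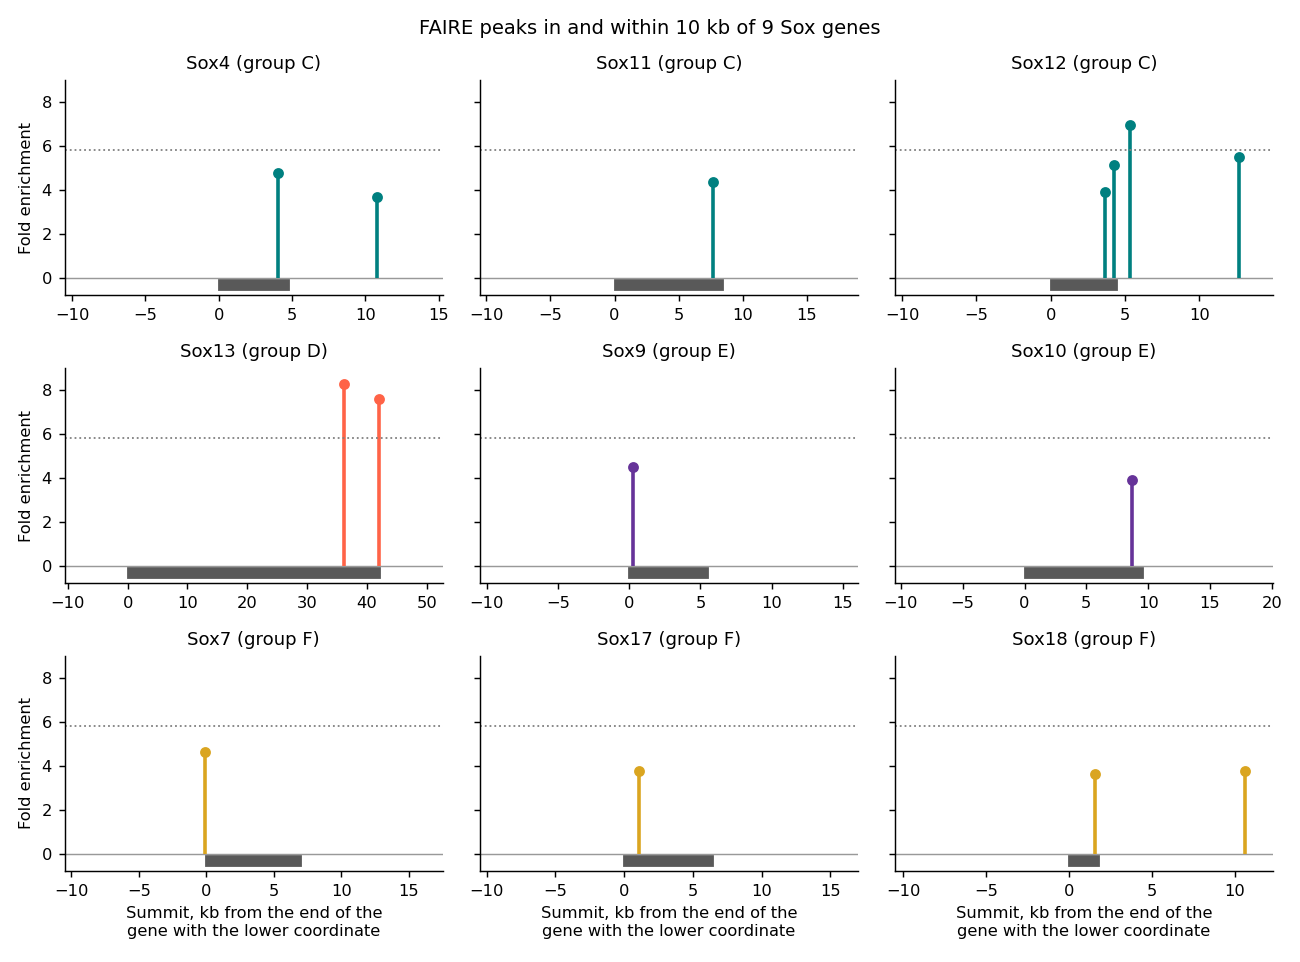
Summits of the peaks (vertical lines, with fold enrichment on the vertical axis) along 9 Sox genes, in kb from the end of the gene with the lower coordinate. Dark bars are the annotated spans, colours are the Sox groups, and the dotted line is the median of all 12413 peaks, 5.80-fold. Sox13 and Sox12 have peaks above that line, and most peaks lie close to an end of their gene.

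Although nearly all of these genes were open, most of their peaks were weak. The fold enrichment over local background, the authors' own value for each peak, had a median of 4.50 over the 15 Sox peaks and ran from 3.62 to 8.26. Over all 12413 peaks the median was 5.80, with quartiles of 4.37 and 7.79. At or below the median of the list lay 12 of the 15 peaks, and 6 were below its lower quartile. The median pileup, the coverage at the summit, was 36 at the Sox genes and 55 over the list, and the median −log10 q was 11.8 against 22.7. Median widths were 335 and 427 bp.

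By the highest fold at each gene, the order was Sox13 (8.26), Sox12 (6.94), Sox4 (4.78), Sox7 (4.62), Sox9 (4.50), Sox11 (4.37), Sox10 (3.87), Sox18 (3.77) and Sox17 (3.76). The value for Sox18 is that of a peak inside Tcea2, and the peak inside Sox18 itself had 3.62, below Sox17. The gap between Sox12 and Sox4 separated 2 genes from the other 7. Without a spread between mice, no neighbours in this order can be said to differ. For the peaks of those 7 genes the fold ran from 3.62 to 4.78 and the pileup from 28 to 53.

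**Figure D2:**
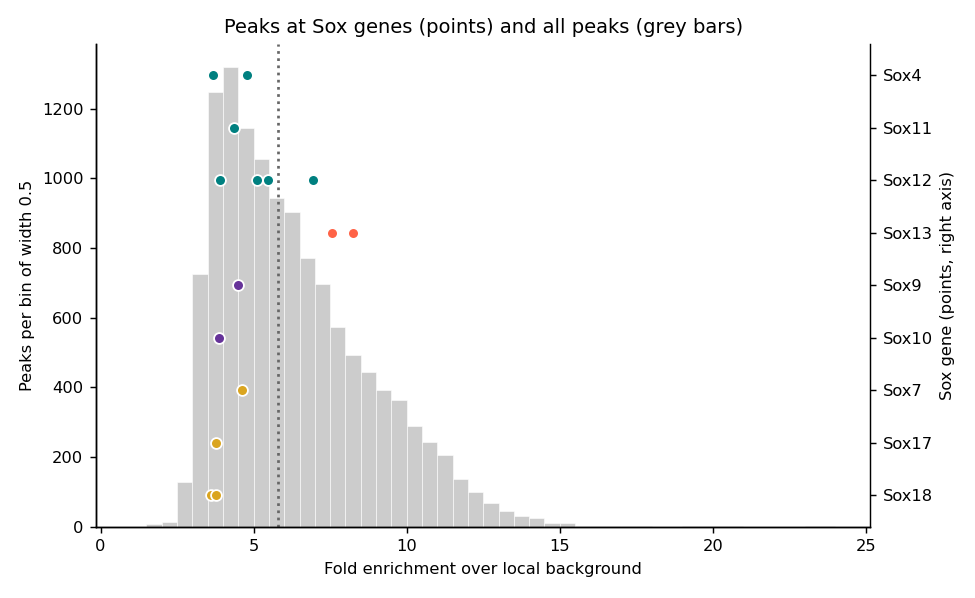
Fold enrichment of each peak at the Sox genes (points, by gene, right axis) over the distribution of all 12413 peaks (grey bars, left axis). The dotted line is the median of all peaks, 5.80. Of the 15 points, 12 lie at or left of it, and those to its right belong to Sox12 and Sox13.

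RefSeq promoter sequences (250 bases before to 50 after a listed start, assembly GRCm38.p6) were matched for 5 of the 10 genes: Sox4, Sox11, Sox12, Sox5 and Sox13. The sequences of 4 are printed because they show 2 kinds of start: a peak covered the promoter of Sox12 and Sox13, while at Sox4 and Sox11 the nearest peak lay inside the gene and covered none of it. All are on the minus strand, written 5′ to 3′, with GC boxes (GGGCGG) and CCAAT boxes (CCAAT), searched on both strands, in capitals. They lie at chr2:152397997-152398296 (Sox12), chr1:133424163-133424462 (Sox13), chr13:28953650-28953949 (Sox4) and chr12:27342669-27342968 (Sox11).
Sox12: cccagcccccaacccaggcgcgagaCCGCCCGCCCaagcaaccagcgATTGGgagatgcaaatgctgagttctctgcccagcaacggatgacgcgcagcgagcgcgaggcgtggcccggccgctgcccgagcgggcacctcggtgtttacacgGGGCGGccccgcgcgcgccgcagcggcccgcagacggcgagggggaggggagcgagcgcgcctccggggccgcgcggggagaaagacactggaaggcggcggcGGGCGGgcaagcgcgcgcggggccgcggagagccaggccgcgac
Sox13: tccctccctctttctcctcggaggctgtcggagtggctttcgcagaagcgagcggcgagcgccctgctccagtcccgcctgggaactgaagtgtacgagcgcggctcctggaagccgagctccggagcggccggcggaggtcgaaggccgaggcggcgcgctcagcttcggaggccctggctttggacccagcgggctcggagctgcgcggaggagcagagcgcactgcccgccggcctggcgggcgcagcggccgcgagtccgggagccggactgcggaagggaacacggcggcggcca
Sox4: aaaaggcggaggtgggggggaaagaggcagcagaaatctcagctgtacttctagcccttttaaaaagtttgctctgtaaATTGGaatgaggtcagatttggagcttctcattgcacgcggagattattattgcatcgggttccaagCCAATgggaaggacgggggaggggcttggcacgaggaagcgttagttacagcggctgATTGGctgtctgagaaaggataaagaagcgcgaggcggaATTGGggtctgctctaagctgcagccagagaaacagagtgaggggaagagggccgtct
Sox11: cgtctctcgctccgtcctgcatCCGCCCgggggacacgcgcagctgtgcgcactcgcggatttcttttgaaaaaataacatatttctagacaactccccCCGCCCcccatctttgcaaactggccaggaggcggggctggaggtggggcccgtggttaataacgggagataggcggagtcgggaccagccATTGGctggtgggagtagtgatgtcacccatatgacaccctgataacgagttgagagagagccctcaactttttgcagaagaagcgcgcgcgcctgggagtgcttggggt

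The covered promoters were the richer in G and C. GC content was 76.7% at Sox12 and 73.3% at Sox13, against 52.0% at Sox4 and 58.7% at Sox11, with a median of 56.7% over 21045 promoters of protein-coding genes. The ratio of observed to expected CpG was 1.07 at Sox12, 1.00 at Sox13, 0.817 at Sox11 and 0.679 at Sox4, with a median of 0.574. The Sox12 peak covered 273 of the 300 bases, and the Sox13 peak 232.

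Known promoter motifs were not shared by the covered promoters. Sox12 had 4 GC boxes, the first pair overlapping, and 1 CCAAT box. Sox13 had neither motif. Sox4 had 4 CCAAT boxes and no GC box, and Sox11 had 2 GC boxes and 1 CCAAT box. GC boxes were present in 46.7% and CCAAT boxes in 38.5% of the 21045 promoters. Sox12 alone of the 4 held the core of the cyclic AMP response element (TGACG, both strands), which 23.8% of promoters have. None of these 4 windows held a TATA box (TATAAA, 12.7% of promoters), the Sox core ACAAT (27.1%), AP-1 (TGANTCA, 7.04%), the E-box CACGTG (7.91%), a Gata motif (AGATAA, 9.68%) or the steroid receptor half-site AGAACA (16.3%). The window listed for Sox5 held 1 Sox core and 1 half-site. A match describes letters only.

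Group C held the widest range of signal. Sox12, a broadly expressed member of this group of activators, had a run of 3 peaks around its start. The first (chromosome 2, 152397120 to 152397454) had a summit 762 bp inside the gene, a pileup of 67 and a fold of 3.90. The next (152397635 to 152398269) had its summit 167 bp inside the gene, with a pileup of 88 and a fold of 5.13. The last (152398734 to 152399079) was 863 bp upstream of the start, and its pileup of 123 was the highest at any of the Sox genes, with a fold of 6.94. The run measured 1960 bp from first to last base, with gaps of 180 and 464 bp. At least 3 peaks within 1 kb of their listed starts were found at 0.428% of the 17274 protein-coding genes with a listed start, and at least 3 in the span or within 10 kb at 4.96% of all protein-coding genes.

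These Sox12 peaks stood on a high local background, computed as (pileup + 1) / fold − 1. It was 16.4, 16.4 and 16.9 in pileup units, against a median of 8.59 over the list and a 99th percentile of 15.8. Because this value is computed from pileup and fold, it only restates that their fold was small for their pileup. The peak 863 bp upstream was at the 92.9th percentile of pileup and the 65.8th of fold. The GC content of this promoter is given above, and its part in the pileup or the background was not tested. The fourth Sox12 peak (chromosome 2, 152406182 to 152406443, 5.47-fold, pileup 49) lay 8255 bp from the gene and 5655 bp from Zcchc3, so it may belong to that neighbour.

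Sox4, which in human endometrial stroma is a progesterone-responsive regulator of decidualization, had a broad peak of 913 bp (chromosome 13, 28952306 to 28953218). Its width was at the 96.1th percentile of the list, while its fold of 4.78 was at the 33.1th and its pileup of 53 close to the median. The summit lay 707 bp inside the gene and also inside the non-coding gene Gm46405. A weaker peak (28959593 to 28959852, 3.68-fold, pileup 32) lay 6042 bp upstream of the start, again inside Gm46405 and 512 bp from the non-coding gene Gm52067. Sox11, known from neural progenitors, had 1 peak (chromosome 12, 27341576 to 27342075, 4.37-fold, pileup 34) with its summit 814 bp inside the gene.

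At each group C gene a peak inside the gene was set back from the start, although Sox12 also had the peak 167 bp from it. Among 8247 peaks overlapping the 1 kb around a listed protein-coding start, the median summit was 30 bp downstream, with quartiles 43 bp upstream (−43) and 165 bp downstream. Only 6.69% had a summit 500 bp or more downstream, as the peak of Sox4, the peak of Sox11 and the innermost peak of Sox12 did. In all, 4 of the 5 Sox genes with a listed start had a peak within 1 kb of it, against 46.7% of the 17274 protein-coding genes with a listed start.

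**Figure D3:**
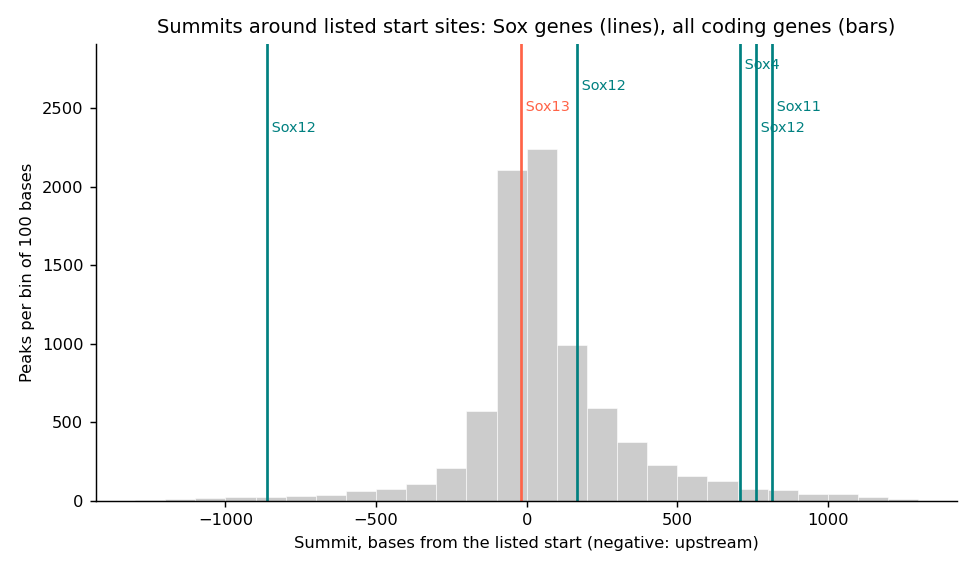
Position of peak summits relative to listed start sites, in bases (negative values are upstream). Coloured lines are the peaks of Sox4, Sox11, Sox12 (group C) and Sox13 (group D), and grey bars are 8247 peaks at protein-coding starts. The Sox13 summit is 19 bp from the start, whereas Sox4, Sox11 and the innermost Sox12 summit are 707 to 814 bp downstream.

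Group D divided sharply. Sox13, found in many embryonic and adult tissues, had the peaks of highest fold of all 10 genes, although the pileup of 2 Sox12 peaks was higher. Its start was covered by a peak of 811 bp (chromosome 1, 133423584 to 133424394) with a fold of 7.56, a pileup of 87 and a summit 19 bp upstream of the listed start. A second peak (133418209 to 133418546) lay inside the gene, 5822 bp downstream of the listed start. It was narrower at 338 bp, with a fold of 8.26 and a pileup of 82. The start peak was at the 72.8th percentile of fold and the inner peak at the 78.7th. The local background was 10.6 at the start and 9.05 at the inner peak, both above the median of 8.59 over the list. Pileup and fold were also above the medians of the list at both peaks.

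Sox5, a partner of Sox9 in cartilage, had no peak in its span of 954 kb, nor within 50 kb of either end. The nearest peaks lay 661 kb away on the side of lower coordinates and 429 kb away on the other. A span of that length without a peak was not rare: of 227 protein-coding genes over 500 kb long, 62.6% had a peak in the span or within 10 kb and 65.2% had one in the span or within 50 kb, and 85 had none within 10 kb. Of the 64 genes at least as long as Sox5, 24 had none within 10 kb. Those length classes were chosen after the Sox5 value was seen.

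The listed strand covers only the 5 genes above, so for groups E and F positions are given from the end with the lower or the higher coordinate. Sox9, a regulator of cartilage and of glandular epithelium, had 1 narrow peak of 268 bp (chromosome 11, 112782326 to 112782593). It had a fold of 4.50 and a pileup of 35, and its summit lay 246 bp inside the gene from the end with the lower coordinate. Sox10, the neural crest and Schwann cell factor, had 1 peak of 322 bp (chromosome 15, 79163452 to 79163773), 872 bp inside the gene from the higher end. Its fold was 3.87 and its pileup 30. Both peaks stood on the lowest local background in the list, 7.002, which 2155 peaks (17.4%) shared.

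Group F had the lowest median fold, 3.77 over 4 peaks. The median was 4.78 over the 7 peaks of group C, 7.91 over the 2 of group D and 4.19 over the 2 of group E. With so few peaks the groups cannot be ranked: the fold ran from 3.62 to 4.62 in group F and from 3.87 to 4.50 in group E. Sox7, a factor of vascular endothelium, had its peak (chromosome 14, 63943392 to 63943913) across the end with the lower coordinate, 116 bp outside the gene by its summit, with a fold of 4.62 and a pileup of 36. Sox18, which directs lymphatic as well as blood vessels, had a peak of 265 bp (chromosome 2, 181671311 to 181671575) 242 bp inside its higher end. Its fold of 3.62 and pileup of 28 were the lowest at any of the 10 genes, and its −log10 q was 6.53, where the lowest in the list was 2.68. The other peak counted for Sox18 (181680372 to 181680640, 3.77-fold, pileup 33) lay 8854 bp away and 197 bp inside Tcea2, so it may belong to Tcea2.

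Sox17, which acts with the progesterone receptor and Gata2 in the uterus, had a single small peak within 10 kb. It measured 253 bp (chromosome 1, 4491914 to 4492166). Its fold was 3.76 and its pileup 31, at the 12.0th and 8.99th percentiles. The summit lay 1081 bp inside the gene from the lower end and 5417 bp from the higher end. The peak entered the 1 kb window at the lower end only by its edge, which was 986 bp from that end. By summit position, 8 rather than 9 of the 10 genes had a peak at an end.

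**Figure D4:**
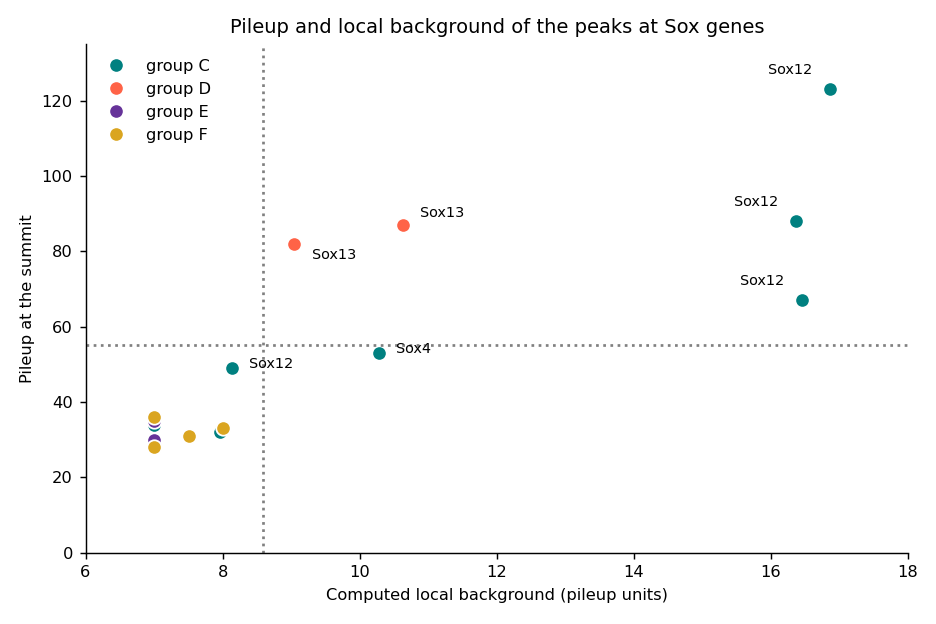
Pileup at the summit (vertical axis) against the computed local background (horizontal axis, in pileup units) for the 15 peaks at the Sox genes, coloured by group; some points overlap at the lower left. Dotted lines are the medians of all peaks, 55 and 8.59. The 3 start peaks of Sox12 stand apart at a background of 16.4 to 16.9, and the peaks of groups E and F lie below both medians.

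The 10 kb limit had little bearing on which genes were called open. The outermost peaks inside it lay 8255 bp (Sox12) and 8854 bp (Sox18) from the gene. The first outside it lay 13629 bp from Sox10 (4.01-fold, 33 bp from the gene 1700088E04Rik), 16750 bp from Sox12 (7.71-fold, inside Zcchc3), 18437 bp from Sox13 (5.08-fold, inside Etnk2) and 22307 bp from Sox18 (9.92-fold, inside Rgs19). For 13 of the 15 peaks the nearest protein-coding gene end was that of the Sox gene itself.

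Some of these genes were isolated. Beyond its own window, the next peak from Sox4 was 3679 kb away toward lower coordinates and 1031 kb toward higher ones. For Sox9 these distances were 1716 and 832 kb, and for Sox11 865 and 1293 kb. Thus 3 of the 9 Sox genes with a peak had no further peak within 500 kb on either side, against 1.82% of the 12400 protein-coding genes with a peak. The distance of 500 kb was chosen after these values were seen. All 3 also lie far from other coding genes, the nearest being 238 kb from Sox4 (Cdkal1), 457 kb from Sox9 (Slc39a11) and 854 kb from Sox11 (Cmpk2). Sox17 had its next peaks 302 kb away toward lower coordinates (7.12-fold, nearest to Rp1) and 74.4 kb away toward higher ones (7.37-fold). For the peak 74.4 kb away the nearest protein-coding gene was Sox17 itself. It lay outside the 10 kb window and was not counted, although its fold was above that of the counted Sox17 peak.

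The remaining Sox genes of the family had mostly weak peaks as well. Of 10 listed, 9 were matched in the annotation used here. A peak within 10 kb was found at 7 of the 9, against 57.6% of all protein-coding genes. Only in 6 was the nearest coding gene end that of the Sox gene. Within 1 kb of an annotated end, 4 of the 9 had a peak, close to the 44.5% of all protein-coding genes. Sox8, another member of group E, had peaks of 3.88-fold and 4.49-fold at an end and a further peak of 7.62-fold that lay 83 bp from an end of Lmf1. Sox6 of group D had peaks of 4.99-fold and 4.00-fold. Of group B, Sox1 had 2 peaks of up to 3.78-fold, Sox21 had 2 of up to 4.34-fold and Sox3 had 1 of 4.64-fold, while neither Sox2 nor Sox14 had any. Sox30 had a stronger peak of 8.68-fold inside the gene, and the peak counted for Sox15 (5.19-fold) lay 45 bp from an end of Mpdu1. Over these 7 genes the median of the highest fold was 4.99, beside 4.50 over the 9 Sox genes of groups C to F and 6.61 over all protein-coding genes with a peak. The 4.99 takes in the peaks near Lmf1 (for Sox8) and Mpdu1 (for Sox15), and the 4.50 takes in a peak inside Tcea2 (for Sox18). The medians therefore do not compare the Sox genes' own peaks alone.

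Of 12 genes listed here as uterine partners and targets of Sox17, 9 had a peak within 10 kb, against 57.6% of all protein-coding genes. At an end 6 of 12 had one, close to the 44.5% of all protein-coding genes. Gene-end peaks were highest at Msx1 (7.15-fold), a homeobox gene of receptivity, followed by Ptch1 (4.45), the hedgehog receptor, Hand2 (4.29), Ihh (3.85), the epithelial hedgehog signal, and Gata2 (3.65). Gli1, Foxa2 and Esr1 had no peak. Of the known targets of group F in endothelium, 5 of 12 had a peak, with gene-end peaks at Notch1 (5.95), Prox1 (5.33) and Flt4 (5.00), the receptor of lymphatic vessels. Cldn5, Cdh5 and Vcam1 had none. Nr2f2 stands on both of these lists.

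Targets of groups E and C were described in the same way. Genes listed here as matrix and gland targets of group E had a peak in 5 of 10. Gene-end peaks were at Comp (7.005-fold), Col2a1 (4.31) and Col27a1 (4.06), while Acan, Col9a1 and Col9a2 had none. Glial and pigment targets of Sox10 had a peak in 6 of 10, led at gene ends by Mitf (6.92), Ret (5.58), Erbb3 (5.27) and Foxd3 (4.11), with none at Gjb1 or Ednrb. Targets of group C had a peak in 10 of 12, led by Map2 (12.8), Nfasc (6.50), Foxo1 (6.32), Ezh2 (6.27) and Gli3 (6.19), with none at Dcx or Gpx3. Cofactors of Sox proteins had a peak in 9 of 12, led by Hdac1 (9.69), Ctnnb1 (9.22), Ctbp2 (7.71), Ep300 (6.51) and Pou2f1 (6.41), with none at Mef2c, Pou3f2 or Pax3. Each count stands beside 57.6% of all protein-coding genes, and none was tested.

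**Figure D5:**
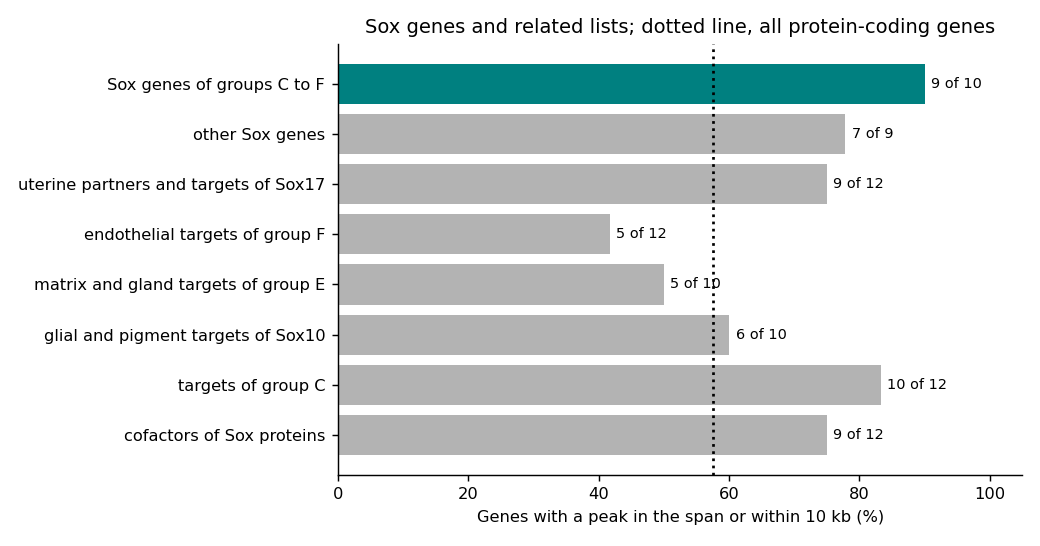
Share of each gene list with a peak in the span or within 10 kb, in percent, with the counts at the bars. The dotted line is the share of all protein-coding genes, 57.6%. The Sox genes of groups C to F (9 of 10) and targets of group C (10 of 12) lie right of the line, and endothelial targets of group F (5 of 12) left of it.

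Markers of the cell types of the uterus differed in how many had a peak within 10 kb, a share that was 57.6% over all protein-coding genes. Of 8 endothelial markers only Erg had a peak (4.25-fold), and Pecam1, Cdh5 and Kdr had none. Among the endothelial targets of group F above, 5 of 12 had one. Sox7, Sox17 and Sox18 had weak peaks, and of these Sox17 is made in epithelium as well as endothelium. None of 5 glandular markers had a peak, Foxa2, Cxcl15 and Prss29 included, beside the single weak peak of Sox9. Epithelial markers had a peak in 2 of 8, Epcam (6.53) and Cdh1 (4.75), stromal markers in 4 of 8 and smooth muscle markers in 3 of 6. Schwann and neural crest markers had one in 4 of 6 and immune markers in 1 of 6. Pdgfra, Hand2, Foxa2 and several others stand on both a marker and a target list. The share of each cell type in the tissue, and its part in these peaks, was not tested.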

How the data were processed

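FAIRE DNA from 3 uteri was sequenced. The labels' protocols describe crosslinking of 100 mg of frozen tissue for 9 min in 1% formaldehyde, and shearing to fragments of about 300 bp. RNA is mentioned in the series' design text, whereas the samples are labelled as DNA. Tools in the submitters' processing notes are MACS2, HOMER, Bowtie2 and FastQC, without versions, with the build GRCm38.p5. How peaks were thresholded, whether an input was used and whether samples were pooled is not given in the sources used here. The authors' table holds, per the file headers, each peak's pileup (taken as a coverage signal), fold enrichment (taken as a ratio to local background) and −log10 q-value. Positions and widths are in bases.

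Gene spans came from RefSeq GRCm38.p6, used for names, neighbours and distances; 340 genes placed on scaffolds (a start under 3 Mb) were dropped, leaving 49214. Overlap of 1 base counted. The gene table holds no strand, so the planned start window was applied where RefSeq promoters list a start (80.3% of protein-coding genes), and either annotated end was used for all genes, also when naming genes from lists. The overlap procedure was tested on simulated data. Python 3.11.15, pandas 2.3.3, numpy 2.4.6 and matplotlib 3.10.9 were used. Members, lists and motifs were chosen with earlier results of these data known. Named were all Sox genes and, from each other list, up to 5 genes of highest fold at an end and up to 3 without a peak. Of the genes so selected, 2 are not reported here. With 1 list and no sample named, no test was made.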

Additional observations from a re-analysis of the deposited data

How the results depend on the processing

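The number of genes with a peak stayed at 9 with the gene span alone, with 5 or 50 kb on each side and with summits only. It was also 9 when a peak had to have the Sox gene as its nearest coding gene. For the alternative settings in this paragraph the share over all protein-coding genes is not given. The counts therefore do not show how the Sox genes stand beside other genes under them. The number of peaks ranged from 11 to 21 over those windows. Among the 6207 peaks with the higher fold, 3 peaks at 2 genes (2 of them at a listed start) were left, with a median of 7.56-fold. Among the same number with the higher −log10 q, 4 peaks at 2 genes (2 at a listed start) were left, with a median of 7.25-fold. Fewer peaks enter these by construction. The median fold was 4.56 with 5 kb and 4.62 with 50 kb on each side. Windows of 500 bases and 2 kb around listed starts gave 3 and 4 genes, against 4 with 1 kb, and by summit position 8 rather than 9 genes had a peak at an annotated end. Removing 30 peaks of high background (over 5 times the median), or keeping genes with scaffold coordinates (an alternative chosen after seeing the data, as was the window at either end), left 15 peaks. No paired analysis was possible because there is 1 group and the table names no sample, and for the same reason no mouse was left out in turn. Unknown depth limits any statement that a gene such as Sox5 is closed: a peak was not detected at it.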
